A study of Mus musculus with 3 samples.

Results

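The dorsoventral patterning factors of the neural tube described here are 8 transcription factor genes, Olig1, Olig2, Nkx2-2, Nkx6-1, Nkx6-2, Dbx1, Gsx2 and Irx3, out of 21602 genes counted. They were chosen by name from textbook knowledge of the neural tube and not by their measured values, though earlier results of these data were known. All 8 were found in the annotation. For each gene the unique fragments of the single-nucleus assay for transposase-accessible chromatin (snATAC-seq) were counted in the gene body plus 2 kb upstream (the gene window), in the promoter (1000 bp upstream to 100 bp downstream of the start) and in the 50 kb on either side of the gene window (the flanks), in mm10 coordinates. Fragments mark open chromatin, so every level below is accessibility and not RNA or protein.

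In the developing spinal cord and hindbrain, Sonic hedgehog from the notochord and floor plate acts through the Gli factors from the ventral side, and BMP and Wnt signals act from the dorsal side. The graded signals set up stripes of progenitors, each marked by its own combination of homeodomain and basic helix-loop-helix factors. Nkx2-2, Nkx6-1 and Nkx6-2 are ventral factors induced by hedgehog signalling, whereas Dbx1 and Irx3 belong to the factors that this signal represses, and cross-repression between the groups sharpens the borders. Olig2 marks the motor neuron progenitor stripe, and Olig1 and Olig2 later drive the oligodendrocyte lineage. Gsx2 patterns the lateral ganglionic eminence of the forebrain and dorsal interneuron progenitors of the cord. Several of these genes also work elsewhere, such as Nkx2-2 and Nkx6-1 in the endocrine pancreas and Irx3 in many mesodermal and epithelial tissues.

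The sampled mice were C57BL/6JRj and wild type. Embryos of E12.5, of E13.5 and of E15.5 were taken, littermates of those used for spatial ATAC. Frozen sections were pooled for each stage and dissociated, nuclei were sorted on 7-AAD, and 1 library was made per stage. The deposited cell table assigns each nucleus to one of 12 clusters numbered 0 to 11. Clusters 0, 6 and 9 together, the neural nuclei here, held 27, 213 and 242 nuclei in order of stage, and the other 7 clusters, called the rest, held 56, 596 and 316. Clusters 2 and 4 (429 nuclei) were left out of these comparisons. Because each stage is a single library, stages were described with counting intervals and not tested. In the tests between classes the 3 libraries stood as replicates, so the p-values measure the spread between 3 libraries of different stage. The mix of clusters within each class also differed between the libraries. Cluster 9 gave 1285439 of 2950630 neural fragments at E12.5 and 1482285 of 16311529 at E15.5. Cluster 5 gave 13046765 of 49085835 fragments of the rest at E13.5 and 508143 of 22221522 at E15.5. What this mix adds to the differences, or to a call lost without 1 library, was not tested. The clusters were built from the same fragments, so a difference between clusters describes them and is no independent support for them.

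The libraries held 153, 970 and 756 nuclei and 8603028, 66925016 and 39513357 unique fragments in nuclei, in order of stage, so the E12.5 values are the least precise. Linked barcodes, which shared fragments with another barcode of the library, made up 5, 32 and 138 nuclei, of which 0, 1 and 5 were neural. Against fixed marker lists, with a marker counted when its accessibility was at least 1.5 times that of the other clusters, cluster 9 held 7 of 7 neural progenitor markers and was progenitor-like. Genes that led cluster 9 included Fabp7, Sox3, Pax6 and Hes5, and also the forebrain factor Fezf2. Cluster 0 held 7 of 7 neuron and 5 of 6 GABAergic markers, and cluster 6 held 6 of 7 neuron and 5 of 5 glutamatergic markers beside 5 of 7 progenitor markers, and both were neuron-like. The neural clusters thus carried forebrain as well as general neural markers, and they were not divided by region of the neural tube. In the rest, cluster 1 was mesenchyme-like, 5 and 11 erythroid-like and 10 muscle-like. Cluster 7 held markers of both epithelium (6 of 6) and chondrocytes (5 of 6), and cluster 8 held markers of endothelium, liver and white blood cells. Cluster 3 held 6 of 6 mesenchyme markers, but its leading genes, such as Olfr1254 and Olfr187, were in no marker list. It was the deepest of the 10 clusters compared (median 105158 fragments per nucleus). At E12.5 it gave 3475757 of the 5381374 fragments of the rest. What kind of nuclei it held was not tested.

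Olig2 and Nkx2-2 were more accessible in neural nuclei than in the rest and Irx3 was less accessible, and the other 5 genes did not pass the test over gene windows. That is 2 of 8 members higher and 1 lower, beside 6.66% of 20085 genes tested higher and 4.17% lower (edgeR quasi-likelihood test with library as a block, Benjamini-Hochberg adjusted p under 0.05). The median log2 difference of the 8 members was 0.50. Over all genes tested the median was -0.0026. Levels below are in CPM, fragments in a gene's window per 1000000 fragment counts summed over all gene windows of the same nuclei. In such sums, fewer nuclei with an open locus and less signal per nucleus cannot be told apart. Per kb of window, so that genes can be compared, the neural levels ranged from 1.62 CPM per kb for Dbx1 to 3.54 for Olig2, at the 66.003 to 88.3 percentile of all genes counted. Irx3 in the rest was the highest of all, at 5.09 CPM per kb and the 94.2 percentile.

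Olig2, the motor neuron and oligodendrocyte determinant (chromosome 16, 91225457 to 91228677, plus strand), had 21.4, 20.2 and 13.9 CPM in neural nuclei, in order of stage, and 11.3, 9.66 and 9.99 CPM in the rest. Every neural value lay above every value of the rest. Here and below, the share of all genes, promoters, flanks or bins without such overlap was not computed, so a lack of overlap describes the values only. The means were 18.5 ± 4.05 and 10.3 ± 0.864 CPM (SD, n = 3), a log2 difference of 0.88 ± 0.23 (SE) with an edgeR adjusted p of 0.0244. Olig1 (chromosome 16, 91269772 to 91271933, plus strand), which starts 44.3 kb beyond the start of Olig2, had 14.1, 11.5 and 14.5 CPM in neural nuclei and 8.21, 8.14 and 7.83 CPM in the rest. These groups did not overlap either, but the log2 difference of 0.77 ± 0.24 missed the threshold (edgeR adjusted p = 0.0579). Leaving out the E12.5 library brought Olig1 past it (0.75, adjusted p = 0.043), and leaving out E13.5 took Olig2 below it (0.70, adjusted p = 0.348). Without cluster 9, Olig2 also lost its call (0.56, adjusted p = 0.20).

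Nkx2-2, the factor of the most ventral progenitor stripe, where it sets visceral motor neuron and ventral interneuron fates, lies on the minus strand of chromosome 2 (147177546 to 147194243). It had 52.6, 43.1 and 49.5 CPM in neural nuclei and 40.7, 27.9 and 26.9 CPM in the rest. The lowest neural library lay just above the highest library of the rest. The means were 48.4 ± 4.82 and 31.8 ± 7.71 CPM (SD, n = 3), a log2 difference of 0.72 ± 0.16 with an edgeR adjusted p of 0.00932. The call was lost without E13.5 (0.70, adjusted p = 0.0748), without E15.5 (0.59, adjusted p = 0.137) and without cluster 9 (0.52, adjusted p = 0.109). The 5 summed markers of endocrine pancreas and gut, another home of Nkx2-2, summed to 62.3 to 72.1 CPM in neural nuclei and 62.3 to 64.1 CPM in the rest, with none at 0 in either. Their median log2 difference was 0.35, none was called, and 2 of the 5 were at least 1.5-fold higher in cluster 6 than in the other clusters. Their part in the result was not tested.

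Irx3, a factor of intermediate and dorsal progenitors (chromosome 8, 91798525 to 91802067, minus strand), went the other way. It had 10.4, 15.9 and 20.8 CPM in neural nuclei and 27.7, 22.4 and 34.5 CPM in the rest, and every neural value lay below every value of the rest. The means were 15.7 ± 5.21 and 28.2 ± 6.09 CPM (SD, n = 3), a log2 difference of -0.69 ± 0.20 with an edgeR adjusted p of 0.0408. This call stood near the threshold. It was lost without E13.5 (-0.92, adjusted p = 0.0532), without E15.5 (-0.74, adjusted p = 0.184), with 1 barcode kept per linked group (-0.68, adjusted p = 0.0516), with cluster 3 left out (-0.60, adjusted p = 0.0907) and without cluster 9 (-0.69, adjusted p = 0.0658). When each cluster entered as its own sum, the difference of Irx3 was 0.56 (adjusted p = 0.633), and all 8 genes moved upwards. Erythroid-like cluster 11, which entered there with 1 sum and no fragment of any of the 8, then counted as much as each other cluster of the rest. Without cluster 11 in that setting, an alternative chosen after seeing the data, Irx3 was at -0.73 (adjusted p = 0.00502), Olig2 at 1.07 (0.000473), Nkx2-2 at 0.84 (6.73e-05) and Olig1 at 0.77 (0.0287). Both settings called more genes over the whole table than the main test, so smaller p-values there are not particular to these genes. The counts over all genes are given in the last section.

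The other 4 genes did not pass the test, which does not show that the classes were equal there. Nkx6-1, needed for motor neuron progenitors (chromosome 5, 101658139 to 101664996, minus strand), had 33.6, 23.8 and 25.02 CPM in neural nuclei and 33.5, 25.4 and 26.9 CPM in the rest, a log2 difference of -0.01 ± 0.16. With each cluster as its own sum its difference was 1.40 (adjusted p = 0.0166), and 0.11 (0.739) without cluster 11. Its relative Nkx6-2 (chromosome 7, 139579376 to 139582797, minus strand) had 18.95, 16.7 and 16.3 CPM against 15.7, 12.3 and 13.49 CPM, a difference of 0.40 ± 0.21. Its neural values all lay above those of the rest although it was not called (edgeR adjusted p = 0.265). Dbx1, which specifies interneurons at the boundary of dorsal and ventral cord (chromosome 7, 49631499 to 49636849, minus strand), had 6.11, 16.6 and 13.03 CPM against 8.56, 12.6 and 13.05 CPM, and the groups overlapped. Gsx2 (chromosome 5, 75075601 to 75077893, plus strand) had 9.78, 9.81 and 9.78 CPM against 10.3, 6.55 and 5.52 CPM, and it was higher in neural nuclei at E13.5 and E15.5 but not at E12.5. Their log2 differences were 0.16 ± 0.25 and 0.60 ± 0.28. With each cluster as its own sum and cluster 11 left out, Nkx6-2 (0.64, adjusted p = 0.0212) and Gsx2 (0.81, 0.0451) passed the threshold. That setting called more genes over the whole table than the main test.

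**Figure D1:**
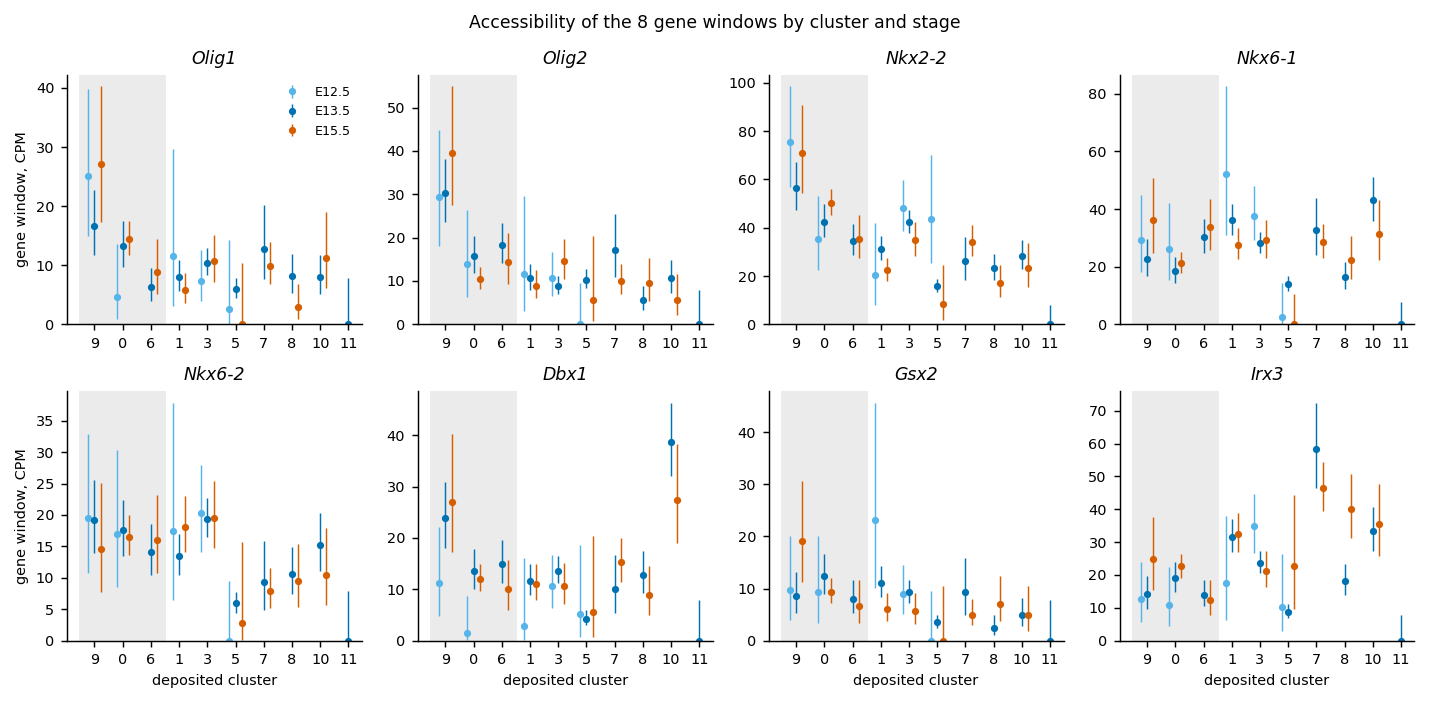
Accessibility of each gene window by cluster, in CPM, with 1 point per cluster and library of at least 10 nuclei and exact Poisson 95% intervals as bars, which cover counting error only. Neural clusters 9, 0 and 6 are shaded, and cluster 9 holds the highest points of Olig1, Olig2 and Nkx2-2, whereas the mean of Irx3 is highest in cluster 7 and that of Dbx1 in cluster 10.

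The promoters gave fewer fragments and called 2 genes, Olig2 higher and Irx3 lower, that is 1 of 8 in each direction beside 7.51% of 15813 promoters higher and 5.63% lower. Promoter levels are CPM over the counts summed over all promoters, and flank levels over those summed over all flanks. A fragment in several overlapping windows counts in each of them. The Olig2 promoter had 58.0, 35.8 and 24.3 CPM in neural nuclei (15, 65 and 48 fragments) and 22.8, 13.53 and 15.8 CPM in the rest, with no overlap between the groups. The log2 difference was 1.11 ± 0.32 with an edgeR adjusted p of 0.0275. DESeq2 did not call it (adjusted p = 0.0848), nor did the fit without E13.5 (0.89, adjusted p = 0.403) or without E15.5 (1.39, adjusted p = 0.0758). The Irx3 promoter had 7.73, 18.7 and 20.3 CPM in neural nuclei (2, 34 and 40 fragments) and 38.7, 35.2 and 65.1 CPM in the rest. This was a log2 difference of -1.37 ± 0.30, a fold of 0.386 with an edgeR adjusted p of 0.00541, and every neural value again lay below the rest. The call failed without E15.5 (-1.16, adjusted p = 0.186) and with each cluster as its own sum (-0.43, adjusted p = 0.984), but not when cluster 11 was left out of those sums (-1.50, adjusted p = 4.1e-06). Both settings with single-cluster sums called more promoters over all than the main test.

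The other promoters were not called. Nkx2-2 had only 1 promoter fragment in neural nuclei at E12.5, then 58 and 38, and a log2 difference of 0.99 ± 0.40 (edgeR adjusted p = 0.121). Without E12.5 its promoter passed (1.21, adjusted p = 0.0218), as it did with cluster 3 left out (1.36, adjusted p = 0.0486). The start of Nkx2-2 differs by 7841 bp between the GENCODE annotation used here and RefSeq, and at the RefSeq start the difference was 0.88 (adjusted p = 0.123). Olig1 (0.67 ± 0.34), Gsx2 (0.57 ± 0.39) and Nkx6-2 (0.30 ± 0.34) had higher point values in neural nuclei, Dbx1 (0.03 ± 0.47) lay near 0 and Nkx6-1 (-0.16 ± 0.27) slightly below it. The Dbx1 promoter had no fragment in neural nuclei at E12.5, which allows up to 11.6 CPM at a floor of 3 counts (exact Poisson bound 14.3 CPM).

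The 250 bases before the start of Olig2 (chr16:91225207-91225456, plus strand) and of Irx3 (chr8:91802068-91802317, minus strand) are shown because these are the promoters that differed, read from the RefSeq GRCm38.p6 sequence, 5′ to 3′ on the gene's strand. Both strands were searched for GACCACCCA (GLI), CAGCTG (E-box), TAATTA (homeodomain) and AACAAT (SOX), and a match would stand in capitals.
Olig2: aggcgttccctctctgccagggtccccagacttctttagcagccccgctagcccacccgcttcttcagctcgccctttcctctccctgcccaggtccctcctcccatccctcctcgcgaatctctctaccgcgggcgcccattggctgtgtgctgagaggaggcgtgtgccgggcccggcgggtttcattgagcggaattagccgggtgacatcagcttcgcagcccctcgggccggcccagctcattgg
Irx3: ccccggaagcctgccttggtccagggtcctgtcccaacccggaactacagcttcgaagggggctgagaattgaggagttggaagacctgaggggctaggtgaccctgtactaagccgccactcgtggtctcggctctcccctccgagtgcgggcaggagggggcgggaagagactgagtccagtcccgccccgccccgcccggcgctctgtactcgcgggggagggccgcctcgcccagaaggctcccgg
Neither 250-base window held a match. Among the 8 upstream windows only that of Olig1 held one, for SOX. In the 32851 RefSeq promoter windows of 300 bases, 0.253% held the GLI letters, 16.3% the E-box, 5.29% the homeodomain letters and 10.7% the SOX letters, so an empty window is common. In the same 300-base windows of the 7 members that have one, Olig2 held 1 SOX match and the others held none.

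The flanks moved at the Olig locus. Olig1 and Olig2 were called higher, that is 2 of 8 and none lower, beside 6.21% of 21153 flanks tested higher and 4.63% lower. The flanks of Olig1 had 56.8, 52.3 and 47.9 CPM in neural nuclei and 38.2, 30.8 and 31.6 CPM in the rest, a log2 difference of 0.66 ± 0.13 (edgeR adjusted p = 0.00463). The flanks of Olig2 had 42.1, 47.0 and 45.2 CPM against 38.7, 28.8 and 27.5 CPM, a difference of 0.56 ± 0.14 (edgeR adjusted p = 0.0226). In both genes every neural library lay above every library of the rest. These are not separate observations, since the starts lie 44.3 kb apart, the flanks overlap, and each flank holds the whole gene window and promoter of the other gene. Without the fragments in the other gene's window, an alternative chosen after seeing the data, the differences were 0.62 (adjusted p = 0.00777) for Olig1 and 0.52 (adjusted p = 0.0384) for Olig2. The Olig1 call was lost without E13.5 (0.60, adjusted p = 0.0545) and with flanks of 25 kb (0.55, adjusted p = 0.0551), and the Olig2 call without E13.5 (0.46, adjusted p = 0.223) and without E15.5 (0.47, adjusted p = 0.167). Nkx6-2 was next, with 43.9, 45.6 and 46.6 CPM against 39.3, 35.0 and 31.9 CPM and no overlap (0.39 ± 0.13, edgeR adjusted p = 0.0732), and it passed with cluster 3 left out (0.68, adjusted p = 0.0079). The flanks of Nkx2-2 (0.09), Nkx6-1 (0.20), Dbx1 (0.20), Gsx2 (0.21) and Irx3 (0.09) were not called. At Irx3 the lower accessibility of gene window and promoter therefore stood beside flanks with no called difference, 39.1, 40.9 and 42.1 CPM in neural nuclei against 51.6, 33.4 and 35.5 CPM.

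**Figure D2:**
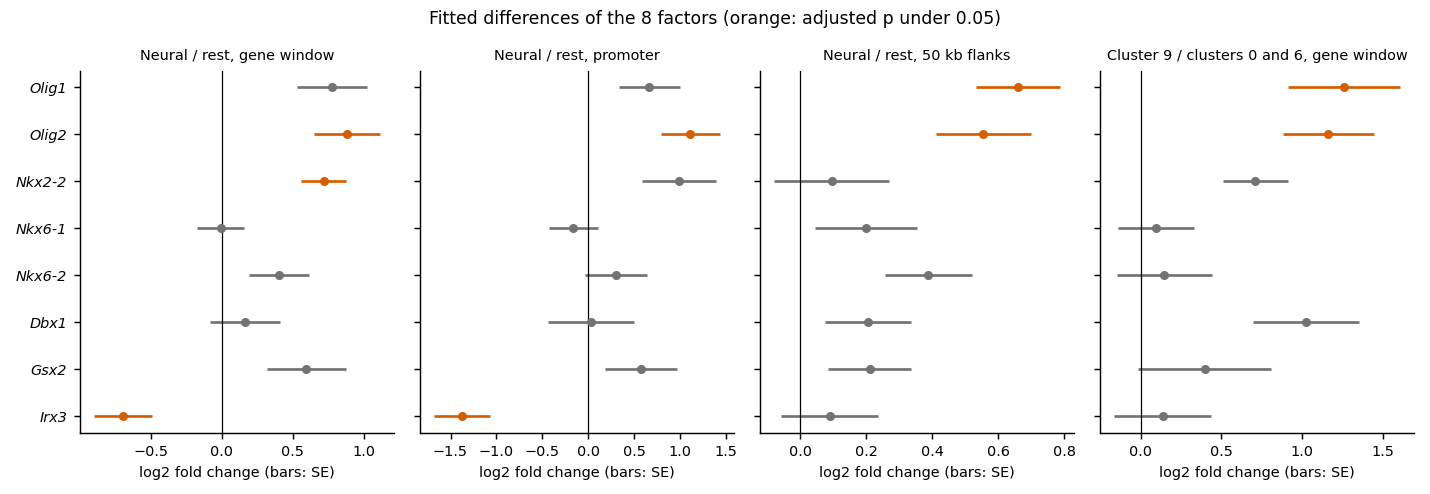
Log2 difference with its SE for each gene in 4 comparisons, neural against rest in gene windows, promoters and flanks, and cluster 9 against clusters 0 and 6 in gene windows, with called genes in orange. Olig2 is called in all 4 panels, and Irx3 is the gene called lower, in gene windows and promoters.

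Among the neural clusters, the progenitor-like cluster 9 was the most accessible at Olig1, Olig2 and Nkx2-2. Against the rest, cluster 9 was called higher at these 3 of 8 genes and lower at none, beside 3.99% of 18849 genes higher and 1.82% lower. Clusters 0 and 6 against the rest were called at none of the 8 (background 5.35% higher and 3.37% lower for cluster 0, and 3.8% and 1.35% for cluster 6). At an unadjusted edgeR p under 0.05 there was 1 of the 8 in cluster 0, Nkx2-2, beside 21.3% of all genes, and 2 in cluster 6, Olig2 and Irx3, beside 17.2%. The cluster 9 values were 29.4, 30.2 and 39.5 CPM for Olig2, 25.2, 16.6 and 27.1 CPM for Olig1 and 75.5, 56.6 and 71.0 CPM for Nkx2-2. The log2 differences from the rest were 1.76 ± 0.30 for Olig2 (edgeR adjusted p = 0.000627), 1.53 ± 0.36 for Olig1 (0.0109) and 1.18 ± 0.21 for Nkx2-2 (0.00113). In cluster 9 the other members were not called, at 0.91 ± 0.35 for Dbx1, 0.84 ± 0.42 for Gsx2, 0.48 ± 0.30 for Nkx6-2 and 0.10 ± 0.24 for Nkx6-1. For Irx3 the difference from the rest was -0.66 (edgeR adjusted p = 0.235) in cluster 9 and -1.04 ± 0.33 (0.0657) in cluster 6, where DESeq2 did call it (-1.05, adjusted p = 0.0431).

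Cluster 9 was also compared with the neuron-like clusters 0 and 6 directly, with sums of under 10 nuclei left out, which dropped cluster 6 at E12.5 (5 nuclei). Olig1 and Olig2 were called higher, 2 of 8, beside 2.26% of 18849 genes higher and 1.17% lower. Olig2 had 13.9, 15.7 and 10.4 CPM in cluster 0 and 18.3 and 14.4 CPM in cluster 6 at E13.5 and E15.5, all below the cluster 9 values. Its log2 difference was 1.16 ± 0.28 (edgeR adjusted p = 0.0216), and that of Olig1 was 1.26 ± 0.35 (0.0445). Olig1 had 4.63, 13.2 and 14.4 CPM in cluster 0 and 6.30 and 8.87 CPM in cluster 6, again all below the cluster 9 values. Both calls were lost without E13.5 (Olig1 1.51, adjusted p = 0.254, and Olig2 1.42, adjusted p = 0.184) and without E15.5 (1.32, adjusted p = 0.323, and 0.82, adjusted p = 0.522), and that of Olig1 also without E12.5 (1.07, adjusted p = 0.075). Olig1 also missed the threshold with sums of at least 5 nuclei (1.26, adjusted p = 0.0579), without the rest in the fit (1.31, adjusted p = 0.0696) and in the promoter (0.78, adjusted p = 0.401). Nkx2-2 (0.71 ± 0.20, edgeR adjusted p = 0.0526) and Dbx1 (1.03 ± 0.33, 0.0886) missed the threshold, and DESeq2 called Nkx2-2 (adjusted p = 0.0243). The differences of Gsx2 (0.40 ± 0.41), Nkx6-2 (0.15 ± 0.29), Irx3 (0.14 ± 0.30) and Nkx6-1 (0.092 ± 0.24) were smaller than their SE. Between clusters 0 and 6 none of the 8 was called by edgeR or DESeq2 (background 0.0106% higher and 0.138% lower). The smallest p there was that of Nkx6-1, with a lower level in cluster 0 (-0.70 ± 0.27, edgeR adjusted p = 0.498, unadjusted p = 0.0151, a level that 6.92% of all genes passed at 0.05). The other 7 differences ran from -0.37 ± 0.35 for Olig2 to 0.71 ± 0.43 for Olig1.

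Across all clusters the order of levels differed from gene to gene. Mean CPM over libraries with at least 10 nuclei was highest in cluster 9 for Olig1 (22.9 ± 5.57, then 11.4 ± 2.03 in cluster 7), Olig2 (33.0 ± 5.60, then 16.4 ± 2.76 in cluster 6) and Nkx2-2 (67.7 ± 9.86, then 42.8 ± 7.45 in cluster 0). Clusters 7 and 6 had 2 such libraries and clusters 9 and 0 had 3, so these means cover different stages. Within each library cluster 9 was also first for these 3 genes, but the cluster after it changed. For Olig2 it was cluster 0 at E12.5, with overlapping counting intervals, and cluster 6 at E13.5 and cluster 3 at E15.5, with intervals apart. For Olig1 it was cluster 1 at E12.5 and cluster 0 at E13.5 and E15.5, and for Nkx2-2 cluster 3 and then cluster 0, all with overlapping intervals. For Nkx6-1 no cluster led throughout. The mean was 38.7 ± 12.49 CPM in mesenchyme-like cluster 1 over 3 libraries, and 37.2 ± 8.15 CPM in muscle-like cluster 10 and 32.1 ± 2.46 CPM in cluster 6 over 2. Cluster 1 had 52.2, 36.2 and 27.6 CPM in order of stage, and its lead rests on E12.5 (18 fragments), where clusters 10 and 6 had under 10 nuclei. At E13.5 cluster 10 was first (43.0 CPM), and at E15.5 neural cluster 9 (36.1 CPM) with cluster 6 next (33.8 CPM), all with overlapping intervals. Nkx6-2 was nearly level over cluster 3 (19.7 ± 0.454 CPM), cluster 9 (17.8 ± 2.73 CPM) and cluster 0 (17.0 ± 0.509 CPM). Gsx2 stood at 13.4 ± 8.83 CPM in cluster 1 and 12.49 ± 5.82 CPM in cluster 9, well within their spread. Cluster 1 had 23.2 CPM at E12.5, on 8 fragments, and then 11.01 and 6.05 CPM, while cluster 0 was first at E13.5 (12.4 CPM) and cluster 9 at E15.5 (19.2 CPM).

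Among the factors of the hedgehog-repressed group, Dbx1 had its highest mean in muscle-like cluster 10, at 33.0 ± 7.96 CPM over 2 libraries, with cluster 9 next at 20.7 ± 8.39 CPM over 3. At E12.5, where cluster 10 had under 10 nuclei, cluster 9 was first with 11.2 CPM, on 8 fragments, and cluster 3 next with 10.7 CPM, and their intervals overlapped. At E13.5 the values were 38.7 and 23.8 CPM with intervals apart, and at E15.5 they were 27.4 and 27.1 CPM and did not differ beyond counting error. Irx3 was highest in cluster 7, at 52.5 ± 8.39 CPM over 2 libraries, then in cluster 10 at 34.4 ± 1.48 CPM. The intervals of these clusters were apart at E13.5 (58.4 CPM in cluster 7 and 33.4 CPM in cluster 10) and overlapped at E15.5 (46.5 and 35.5 CPM), where cluster 8 came next after cluster 7 (40.1 CPM). At E12.5, where cluster 7 had under 10 nuclei, Irx3 was highest in cluster 3 (34.9 CPM). Erythroid-like cluster 5 was the lowest of the 9 clusters with more than 1 library for 6 of the 8 genes, from 1.16 CPM for Gsx2 to 5.49 CPM for Nkx6-1. For Nkx2-2 it had 22.7 ± 18.5 CPM, above cluster 8 (20.1 CPM), with 43.7 CPM at E12.5 on 17 fragments, and for Irx3 13.9 CPM, above cluster 6 (13.1 CPM). Erythroid-like cluster 11, which reached 10 nuclei in 1 library, held no fragment of any of the 8.

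Within the loci, 6 of 629 tested 1 kb bins differed between neural nuclei and the rest, 5 higher and 1 lower, and the 5 higher bins lay 15957 bp to 52.3 kb from the start of the gene. Bins are counted by fragment midpoints and tested among 1161019 bins genome-wide, of which 1.0% were called higher and 0.624% lower. The 5 and the 1 of 629 are shares no larger than these, so the number of called bins sets the loci apart from no other sequence, and the bins are described one by one. The named bins were picked by their p over these same libraries. A lack of overlap between their libraries therefore follows in large part from that choice and adds nothing to the p. Levels of bins are in CPM too, here midpoints per 1000000 fragments in nuclei of the class.

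The region with the smallest p lay at Nkx6-2, 37.3 kb downstream of its start, at chr7:139545001-139546000 in an intron of Inpp5a, an inositol phosphatase gene. It had 2.03, 4.18 and 6.07 CPM in neural nuclei (6, 68 and 99 midpoints) and 0.186, 0.774 and 1.49 in the rest (1, 38 and 33). All neural libraries lay above all libraries of the rest, and the log2 difference was 2.32 ± 0.40 with an edgeR adjusted p of 7e-06. It kept its call without E12.5, without E13.5 and without E15.5. All neural clusters carried it, with 4.54 and 5.12 CPM in cluster 0, 3.52 and 10.6 in cluster 6 and 4.59 and 4.05 in cluster 9 at E13.5 and E15.5. A second bin of the locus, 52.3 kb downstream of the start and also in an Inpp5a intron (chr7:139530001-139531000), had 4.41, 1.72 and 1.10 CPM against 0.929, 0.428 and 0.540 (1.67 ± 0.49, edgeR adjusted p = 0.0445), and lost its call without E13.5 (adjusted p = 0.399) and without E15.5 (adjusted p = 0.139). Which gene either bin acts on was not measured.

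At the Olig locus, a bin 15957 bp upstream of Olig2, in intergenic sequence at chr16:91209001-91210000, had 2.03, 1.23 and 0.858 CPM in neural nuclei (6, 20 and 14 midpoints). The rest had none at E12.5, which allows up to 0.557 CPM at a floor of 3 counts (exact Poisson bound 0.685 CPM), and then 0.143 and 0.225 (7 and 5 midpoints). The log2 difference was 2.85 ± 0.66 with an edgeR adjusted p of 0.00276, and the groups did not overlap. The call held without E12.5 and without E15.5, and without E13.5 the bin had too few midpoints to be tested. A bin 35.7 kb downstream of the start of Olig1, in an intron of the lincRNA gene Gm15966 (chr16:91305001-91306000), had 1.69, 1.66 and 1.47 CPM against 0.186, 0.448 and 0.315 (2.13 ± 0.55, edgeR adjusted p = 0.0123). Most of its neural signal came from cluster 9, with 2.33, 3.82 and 9.44 CPM (3, 15 and 14 midpoints), beside 1.65, 0.626 and 0.768 in cluster 0. It lost its call without E13.5 (adjusted p = 0.194) and without E15.5 (adjusted p = 0.342).

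At Dbx1 a bin 17.7 kb upstream of the start, in intergenic sequence at chr7:49654001-49655000, had 0.678, 2.15 and 0.92 CPM in neural nuclei (2, 35 and 15 midpoints) and 0.186, 0.285 and 0.180 in the rest (1, 14 and 4). The log2 difference was 2.63 ± 0.63 with an edgeR adjusted p of 0.00414, and it was not called without E15.5 (adjusted p = 0.140) and not tested without E13.5, where midpoints were too few. Clusters 9 and 6 carried the signal, at 5.10 and 2.35 CPM at E13.5, while cluster 0 had 0.156 and muscle-like cluster 10, where the Dbx1 gene window was highest, had 0.794. The 1 called bin that was lower, chr8:91802001-91803000, covers the start of Irx3 and an exon of its antisense partner Irx3os, which strandless fragments cannot tell apart. It had 0.678, 1.78 and 1.96 CPM in neural nuclei against 2.60, 3.34 and 7.16 in the rest (-1.46 ± 0.37, edgeR adjusted p = 0.00836), and was not called without E15.5 (adjusted p = 0.770). Of the 159 midpoints of the rest at E15.5, 63 came from cluster 7.

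No bin was called at the other 3 loci. The bin with the smallest p at Gsx2 lay 9.9 kb beyond its start (1.47, edgeR adjusted p = 0.0606) with 3.39, 2.21 and 1.96 CPM in neural nuclei and 0.929, 0.713 and 0.855 in the rest, no overlap, and the highest values in cluster 9 (4.67, 3.82 and 7.42). It passed without E12.5 (adjusted p = 0.032). At Nkx2-2 the corresponding bin lay in the gene itself (1.01, adjusted p = 0.368) and at Nkx6-1 it lay 23.5 kb upstream (1.10, adjusted p = 0.437).

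**Figure D3:**
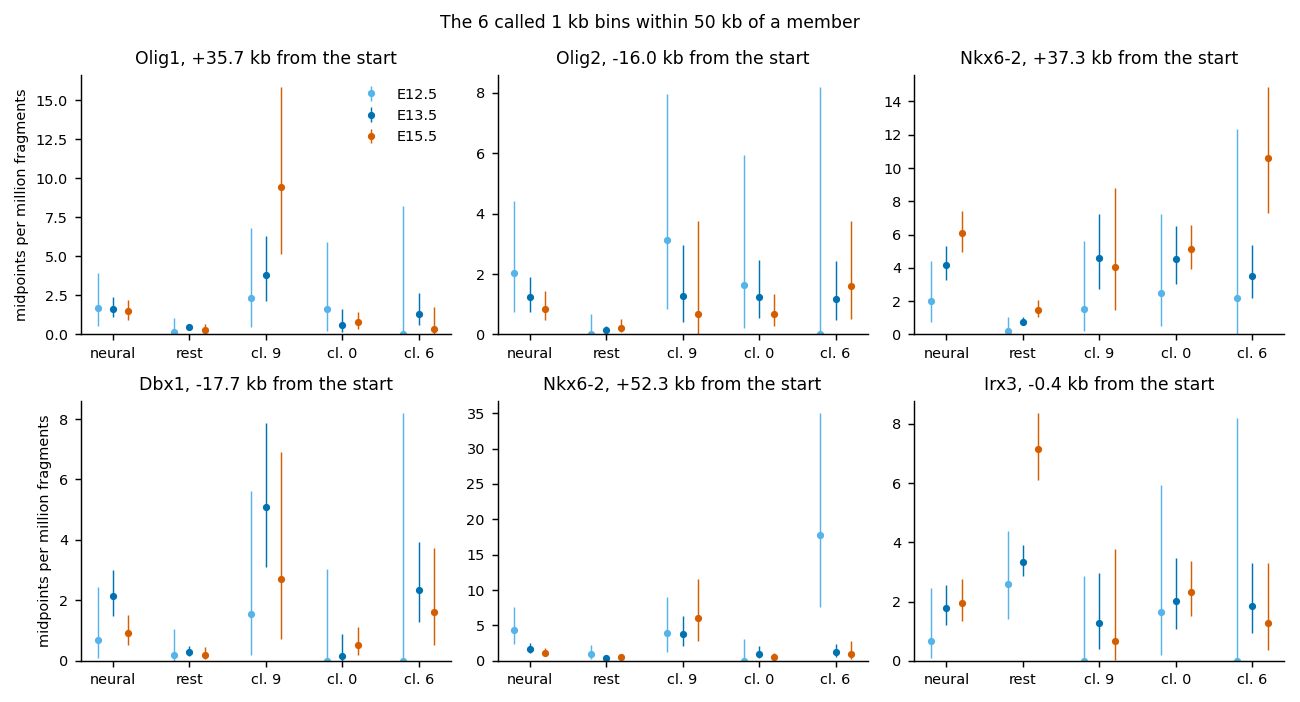
The 6 called bins, in midpoints per 1000000 fragments for neural nuclei, the rest and clusters 9, 0 and 6, with 1 point per library and exact Poisson 95% intervals as bars, which cover counting error only. The neural points lie above those of the rest in 5 bins and below them in the bin at the start of Irx3, and the bins were picked by their p over these same libraries.

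The 300 bases richest in fragment ends of neural nuclei within 4 called bins outside the promoters are shown because these are the regions that differed between the classes, 1 per gene. They are read 5′ to 3′ on the plus strand of RefSeq GRCm38.p6, and capitals mark matches to the 4 motifs above on either strand. They lie at chr16:91209489-91209788 (Olig2), chr16:91305648-91305947 (Olig1), chr7:139545151-139545450 (Nkx6-2) and chr7:49654523-49654822 (Dbx1).
Olig2, 15957 bp upstream: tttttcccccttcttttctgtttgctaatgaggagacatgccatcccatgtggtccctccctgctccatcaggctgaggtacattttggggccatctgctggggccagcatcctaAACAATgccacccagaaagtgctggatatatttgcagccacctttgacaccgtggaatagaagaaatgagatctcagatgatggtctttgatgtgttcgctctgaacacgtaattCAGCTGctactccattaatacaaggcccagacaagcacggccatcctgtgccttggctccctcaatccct
Olig1, 35.7 kb downstream: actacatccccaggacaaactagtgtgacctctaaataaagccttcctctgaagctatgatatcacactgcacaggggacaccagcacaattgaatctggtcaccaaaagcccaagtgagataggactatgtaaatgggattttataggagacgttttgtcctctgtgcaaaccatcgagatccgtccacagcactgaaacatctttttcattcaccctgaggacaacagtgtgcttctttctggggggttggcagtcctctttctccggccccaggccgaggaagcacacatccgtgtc
Nkx6-2, 37.3 kb downstream: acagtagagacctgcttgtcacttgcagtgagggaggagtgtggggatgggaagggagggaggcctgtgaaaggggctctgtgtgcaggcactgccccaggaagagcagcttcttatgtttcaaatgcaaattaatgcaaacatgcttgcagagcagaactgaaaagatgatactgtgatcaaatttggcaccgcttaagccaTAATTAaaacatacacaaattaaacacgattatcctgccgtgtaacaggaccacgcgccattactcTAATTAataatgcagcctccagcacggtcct
Dbx1, 17.7 kb upstream: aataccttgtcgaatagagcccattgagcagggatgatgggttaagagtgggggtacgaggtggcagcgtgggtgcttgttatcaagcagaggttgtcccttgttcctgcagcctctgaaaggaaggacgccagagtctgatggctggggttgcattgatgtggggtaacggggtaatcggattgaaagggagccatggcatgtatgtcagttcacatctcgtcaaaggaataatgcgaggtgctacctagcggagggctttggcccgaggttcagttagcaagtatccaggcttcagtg
The Olig2 window held 1 E-box and 1 SOX match and the Nkx6-2 window 2 homeodomain matches, while the other 2 held none. None held the GLI letters. Of the central 300 bases of all 1161019 bins tested, 14.5% held the E-box, 8.12% the homeodomain letters, 15.4% the SOX letters and 0.265% the GLI letters. A match describes letters and no bound factor.

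**Figure D4:**
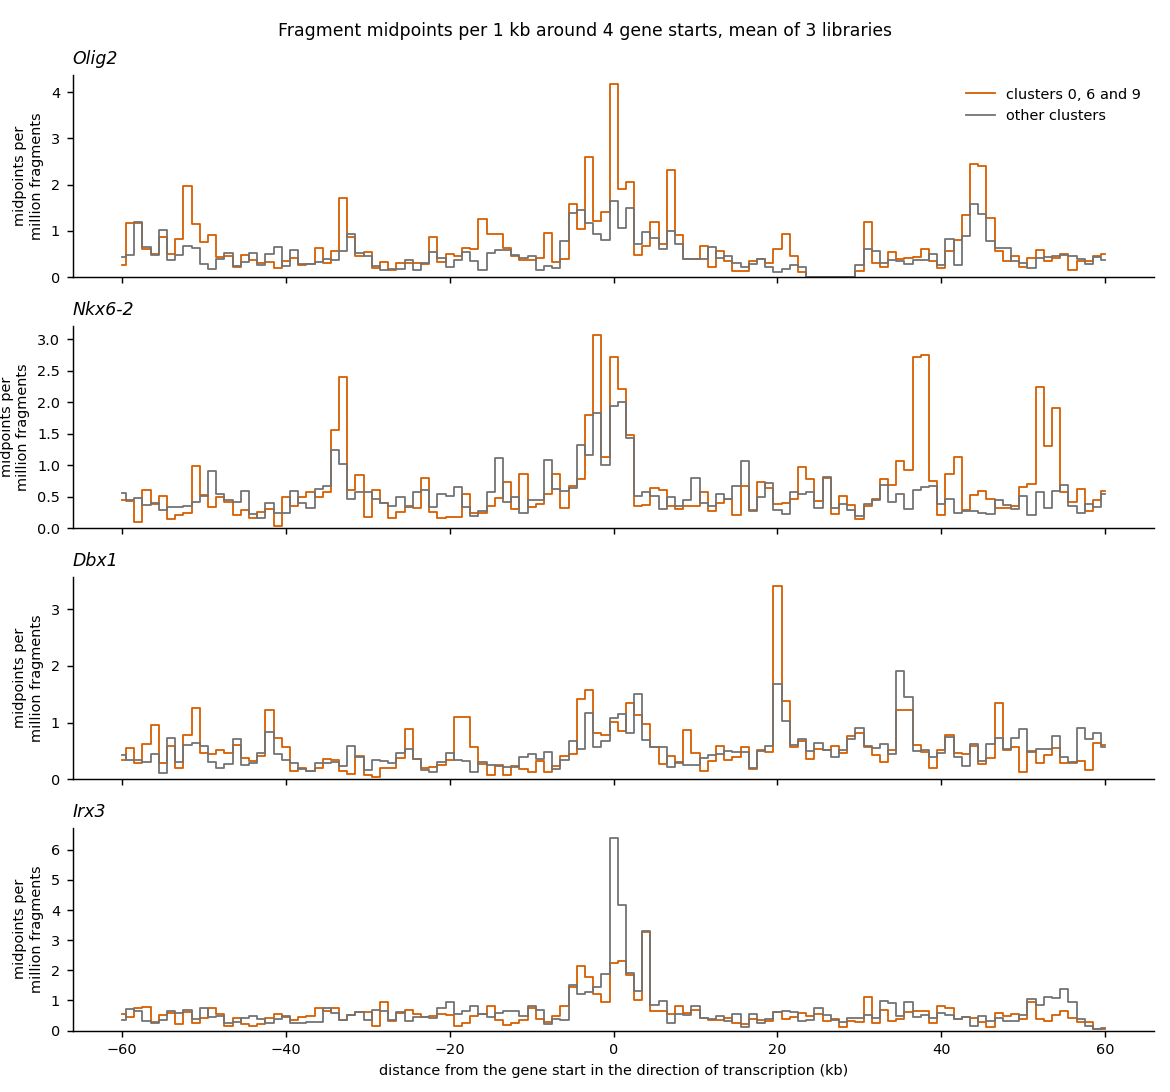
Midpoints per 1000000 fragments within 60 kb of the starts of Olig2, Nkx6-2, Dbx1 and Irx3, as the mean of the 3 libraries, for neural nuclei and the rest, against distance from the start in kb along the gene's strand. Neural nuclei stand above the rest at the start of Olig2, and the rest stands above them at the start of Irx3. The gap 24 to 29 kb beyond the start of Olig2 is sequence of which 99.8% is masked as repeat.

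Stages were compared by ratios with counting intervals, of which the share over all genes was not computed. From E13.5 to E15.5 the neural level of Olig2 had a ratio of 0.685 (95% interval 0.545 to 0.860), that of Nkx2-2 1.15 (1.00 to 1.31) and that of Irx3 1.31 (1.05 to 1.63). The promoters did not all follow the gene windows. That of Nkx2-2 had a ratio of 0.602 (0.389 to 0.922), on 58 and 38 fragments, on the other side of 1 from its window, although scaled by all fragments the interval reached 1.001 (0.654, 0.423 to 1.001). The Nkx6-1 promoter had 0.632 (0.440 to 0.902) beside 1.05 in its window. With clusters 0, 6 and 9 weighted equally the promoter had 0.772. Within clusters it had 0.499 in cluster 6 (0.254 to 0.921), and 1.11 in cluster 0 and 1.09 in cluster 9, both with intervals that included 1. The promoter ratios of Olig2 (0.679, 0.457 to 1.0005) and Irx3 (1.08, 0.667 to 1.76) included 1. The mix of neural clusters differed between these libraries, with cluster 0 making up 87 of 213 neural nuclei at E13.5 and 172 of 242 at E15.5. With clusters 0, 6 and 9 weighted equally the ratio of Olig2 was 1.001, that of Nkx2-2 1.17 and that of Irx3 1.27, so the lower pooled level of Olig2 was not seen with equal weights. Within clusters the Olig2 ratio was 0.665 in cluster 0 (0.463 to 0.959) and 0.787 in cluster 6 (0.479 to 1.26). Cluster 9 had 30.2 CPM at E13.5 and 39.5 CPM at E15.5, on 71 and 35 fragments. Its ratio was 1.31 (0.845 to 1.98), which includes 1, and the equally weighted ratio rests in part on this imprecise value. From E12.5 to E15.5 the pooled ratios were 0.649 for Olig2 (1.04 with equal weights), 2.13 for Dbx1 (2.99) and 2.003 for Irx3 (2.20). From E12.5 to E13.5 Dbx1 had a ratio of 2.71 (1.43 to 5.76, and 3.18 with equal weights), and the E12.5 value rests on 10 fragments. Nkx6-1 had one of 0.709 (0.526 to 0.970, and 0.605 with equal weights), but scaled by all fragments in place of those in gene windows it was 0.745 (0.552 to 1.02), which includes 1. Within clusters 0 (0.701) and 9 (0.769) the interval included 1. Within cluster 6 it was 0.487 (0.290 to 0.867), with 17 fragments in 5 nuclei at E12.5, and 0.471 (0.281 to 0.838) scaled by all fragments. The ratio of Olig2 from E12.5 to E15.5 also included 1 on that scale (0.682, 0.467 to 1.02). In promoters, Olig2 (0.419), Nkx6-1 (0.424) and Nkx6-2 (0.406) had intervals below 1 from E12.5 to E15.5, which included 1 when scaled by all fragments. From E12.5 to E13.5 the Nkx2-2 promoter had a ratio of 8.27 (1.43 to 332), on 1 and then 58 fragments, and the Dbx1 promoter went from 0 to 28 fragments. Within cluster 9, Gsx2 had a ratio of 2.25 (1.11 to 4.52) from E13.5 to E15.5, on 20 and 17 fragments. With 1 library per stage, none of these can be set against the spread between embryos.

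Per nucleus, the factors were detected sparsely. Nuclei were thinned to 10000 fragments each, which left 470 neural nuclei (12 left out, median depth before thinning 67887.5) and 179 of erythroid-like cluster 5 (7 left out, median 60994), a cell type that should lack these factors. Each thinning, to 10000 or to 5000 fragments, was a single random draw. The spread between draws was not computed, so differences between the depths also hold the noise of the draws. The 3 libraries were pooled for these shares, so the intervals cover nuclei and not libraries. By stage, cluster 5 had 10, 166 and 10 nuclei in all and the neural clusters 27, 213 and 242, so the classes also differ in their mix of stages. A fragment in the Nkx2-2 window was found in 28.8% of cluster 9 (19.2 to 40.0), 24.8% of cluster 0 and 11.7% of cluster 6, and in 4.47% of cluster 5 (1.95 to 8.62). For Olig2 the shares were 17.5%, 8.02% and 10.2% in clusters 9, 0 and 6 and 3.91% in cluster 5, and for Olig1 13.8%, 7.63% and 3.13% and 1.68%. Dbx1 was found in 15% of cluster 9, 18.7% of cluster 10 and 0 of 179 nuclei of cluster 5, which allows a share of up to 1.68% at a floor of 3 counts (Clopper-Pearson bound 2.04%). This bound holds for thinned nuclei only. Without thinning, 20 of the 179 had a Dbx1 fragment (11.2%, 6.96 to 16.7), beside 37 of 80 in cluster 9. Thinned to 5000 fragments, Dbx1 was found in 1 of 81 nuclei of cluster 9 (1.23%), below the bound of 1.98% for cluster 5, and Olig2 in 4.37% of neural nuclei beside 3.804% of cluster 5. At 10000 fragments the neural share lay above the upper bound of cluster 5 for 7 of 8 genes, and at 5000 for 4. The share of the rest did so at 10000 for 5, Nkx2-2 (12.4%), Nkx6-1 (12.8%), Nkx6-2 (6.07%), Dbx1 (5.32%) and Irx3 (13.6%). How many of all genes do so was not computed. For Nkx2-2, clusters 3 (18.8%) and 1 (15.54%), both outside the neural class, stood above neural cluster 6. Of the genes not named yet, Nkx6-1 was found in 14.0% of neural nuclei, Nkx6-2 in 8.72% and Gsx2 in 5.53%, beside 4.47%, 1.68% and 1.68% in cluster 5. The neural exception was Irx3, at 10.0% of neural nuclei, 27.9% of cluster 7 and 6.15% of cluster 5 with an upper bound of 10.7%. Without thinning, 34 of 80 nuclei of cluster 9 had an Olig1 fragment, 38 an Olig2 fragment and 20 both, and after thinning 11, 14 and 1. The unthinned counts were 191, 240 and 69 of 939 nuclei in the rest, among them 60, 69 and 25 of 208 in cluster 3. Without matching for depth, the 10 highest of the 81 nuclei of cluster 9 held 52.4% (Nkx2-2) to 77.3% (Gsx2) of a gene's fragments, and 35 of the 250 Nkx2-2 fragments fell in 1 nucleus. What depth and sparse counts alone would give was not computed.

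**Figure D5:**
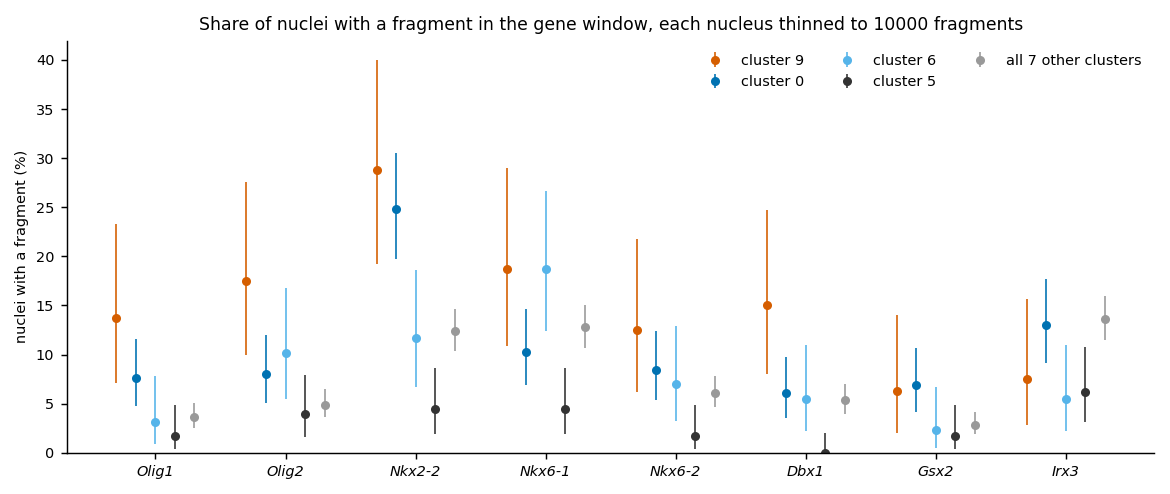
Share of nuclei with at least 1 fragment in the gene window after thinning to 10000 fragments, for clusters 9, 0, 6 and 5 and for all 7 other clusters together. The 3 libraries are pooled, and bars are Clopper-Pearson 95% intervals, which cover counting error only. Nkx2-2 reaches 28.8% in cluster 9 and 4.47% in erythroid-like cluster 5, while Irx3 stands at 7.50% in cluster 9 and 13.6% in the 7 other clusters together.

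The neighbouring parts of the pathway were read from 4 lists, of which that of the oligodendrocyte lineage holds Olig1, Olig2 and Nkx2-2 as well. Of 19 other dorsoventral factors, 8 were higher in neural gene windows and none lower, beside 6.66% and 4.17% of all genes, with a median log2 difference of 0.58 beside -0.0026 over all genes. In promoters 5 of the 18 tested were higher and 1 lower, beside 7.51% and 5.63%. Among those higher were Neurog2 (1.67), a proneural factor of motor neurons and cortex, Pax6 (1.43), which is also a progenitor marker here, and Prdm12 (0.91), a factor of V1 progenitors and nociceptors. Of 12 Hedgehog pathway genes edgeR called none in either direction (median 0.09). At an unadjusted edgeR p under 0.05 there were 4, beside 24.7% of all genes, the transcription factors Gli3 (0.39) and Gli1 (-0.36), the hedgehog-binding inhibitor Hhip (0.35) and the co-receptor Boc (0.39). In cluster 9 against clusters 0 and 6, 4 of the 12 were higher and 1 lower, beside 2.26% and 1.17% of all genes. Of 13 factors of the neurons born from these domains, 4 were higher, among them Sox14 of certain inhibitory neurons (1.11), Isl2 of motor neurons (0.57) and En1 of V1 interneurons (0.63), and none was called between cluster 9 and the neuron-like clusters. In promoters 1 of these 13 was higher and none lower, beside 7.51% and 5.63%. Of the 12 Hedgehog pathway promoters edgeR called none, and 1, that of Gli1 (-0.63), had an unadjusted p under 0.05, beside 26.0% of all promoters. Of 8 oligodendrocyte lineage genes 3 were higher, Olig2, Nkx2-2 and the receptor phosphatase Ptprz1 (0.75). In promoters 2 of these 8 were higher, Olig2 and Ptprz1, and 2 lower, Cspg4 (-1.69) and Pdgfra (-1.12), which mark oligodendrocyte precursors and also pericytes and mesenchyme.

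The genes whose levels were most like those of the members were sought over 24 sums of cluster and library, which share library, depth and clustering, so Pearson's r of log2(CPM + 1) is a description only. They were Galnt16 for Olig1 (r = 0.895), Insm2 for Olig2 (0.938), Cacng4 for Nkx2-2 (0.956), Tacc2 for Nkx6-1 (0.948), Tpbg for Nkx6-2 (0.963), Pdgfa for Dbx1 (0.868), Sfrp2 for Gsx2 (0.932) and Tmcc3 for Irx3 (0.927). For the mean of the 8 members they were Tacc2 (0.959), Ncald (0.954) and 1700003E16Rik (0.951). Among the members themselves r ran from 0.412 between Gsx2 and Dbx1 to 0.886 between Gsx2 and Nkx6-1, and it was 0.739 between Olig1 and Olig2. Dbx1 and Irx3 each took part in the lower values, and with each other they had an r of 0.708.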

How the data were processed

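The deposited fragment files of the 3 snATAC-seq libraries gave the barcode, mm10 position and read count of each unique fragment, and the deposited cell table gave the cluster of each nucleus. The submitters' processing notes name Cell Ranger ATAC 2.0.0, Seurat 4.1.0 and Signac 1.6.0. The study integrated the nuclei with spatial profiles before clustering. The authors' per-nucleus fragment tallies served only as a check on the counts (largest difference 0.604%, at E13.5), and 20 other columns of the cell table were not used. Replicates are libraries, 1 per stage, and no sample carries a second one.

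Unique fragments that overlapped a window were counted per class and library for 21602 protein-coding genes of GENCODE vM21. Each was counted once per window, and again in any other window it overlapped. Gene models of the protocadherin and Ugt clusters (79) and 231 genes spanning over 500 kb were left out. Bins of 1000 bp were counted by fragment midpoint and tested with at least 30 midpoints. Sequence came from RefSeq GRCm38.p6, which has the mm10 coordinates.

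Counts were tested with edgeR 4.0.16 (R 4.3.3, TMM, filterByExpr, quasi-likelihood F-test, library as a block) over the whole table, with Benjamini-Hochberg adjusted p under 0.05 as the threshold. The SE beside an edgeR difference is the absolute log2 difference divided by the square root of the F statistic, and is thus an approximation. DESeq2 1.42.0, no TMM, no filter, other window sizes, other nuclei and each library left out were the alternatives, and the RefSeq starts, the single-cluster sums without cluster 11 and the Olig flanks without the other Olig gene were added after the data were seen. Scripts ran under Python 3.11.15 with numpy 2.4.6, pandas 2.3.3 and scipy 1.17.1. The gene-window test of neural nuclei against the rest was also run on simulated data, and the other tests were not. Intervals are exact 95% Poisson, ratio or Clopper-Pearson intervals and cover counting error only. No doublet caller was run, linked barcodes were reduced to 1 per group as an alternative, and 1 barcode occurs in 2 libraries.

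All 8 members were computed in every comparison and are given by value or range, while for clusters 0 and 6 against the rest those with a p under 0.05 were named. Of each other list at most 4 genes were named, those with the smallest p in gene windows of neural nuclei against the rest (some are not reported here), and in promoters those 2 that were lower, named after their values were seen. Of bins, those called and otherwise the bin outside every promoter with the smallest p in a locus were named, and as most alike the gene with the highest r, over 1 Mb from every member. The members, lists and tests were chosen with earlier results of these data known.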

Additional observations from a re-analysis of the deposited data

Results flagged for a closer look

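The nuclei of clusters 2 and 4, which enter none of the comparisons above, held some fragments of the members beyond the neural level. Olig2 had 36.1 CPM in cluster 2 at E15.5 (17 fragments), beside 13.9 CPM in neural nuclei. Nkx2-2 had 501 CPM in cluster 4 at E15.5, beside 49.5 CPM in neural nuclei, on 25 fragments of which 11 were distinct, in 15 nuclei, and with 1 barcode kept per linked group 6 fragments and 566 CPM remained. Dbx1 had 41.3 CPM in cluster 2 (5 fragments) and 112 CPM in cluster 4 (2 fragments) at E12.5, beside 6.11 CPM in neural nuclei.

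The flanks of Irx3 had a ratio of neural nuclei over the rest of 0.757 in the E12.5 library, whereas E13.5 gave 1.23 and E15.5 gave 1.19, so that the E12.5 library lay on the other side of 1. With 1 library per stage this difference was not tested.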

How the results depend on the processing

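Each stage is 1 library, so the calls rest on few replicates, and the E12.5 library is shallow. Of the 8 members, 3 were called in gene windows, 2 in promoters, 2 in flanks, 2 between cluster 9 and clusters 0 and 6, and 6 bins in their loci. With 1 library left out these counts were 0 to 4, 0 to 3, 0 to 3, 0 to 1 and 2 to 15. With each cluster as its own sum 7 gene windows and 5 promoters were called, with that setting less cluster 11, which held no fragment of the members, 6 and 3, and without cluster 9 none and 1. DESeq2 called 1 promoter, and 1 member in cluster 6 against the rest where edgeR called none. Cluster 9 against clusters 0 and 6 gave 1 call with sums of at least 5 nuclei, without the rest in the fit and in promoters. Bins of 500 bp gave 11 calls and at least 60 midpoints gave 14, and thinning to 5000 left 4 of 7 genes above the bound of cluster 5. Between clusters 0 and 6 neither edgeR nor DESeq2 called a member under the settings run, although Nkx6-1 had an unadjusted p under 0.05 (edgeR). In all these the cause was not tested. The calls over all features are not given here for 500 bp bins, for at least 60 midpoints or without cluster 9. Nor are they given for DESeq2 in cluster 6, or for cluster 9 against clusters 0 and 6 in promoters and without the rest. Member counts there cannot be set against all features.

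Over all features, calls without 1 library ranged from 910 to 3402 gene windows (2174 with all), 580 promoters without E15.5 and 824 without E13.5 (2078), 870 to 4986 flanks (2292), 3382 to 37219 bins (18858), 73 and 145 genes without E13.5 and E15.5 between cluster 9 and clusters 0 and 6 (647), and 0 to 75 between clusters 0 and 6 (28). Each cluster as its own sum gave 5928 gene windows and 3889 promoters, with a median log2 difference over all of 0.099 and 0.13, and 3896 and 3223 without cluster 11 (medians -0.012 and 0.0019), DESeq2 988 promoters and 75 genes between clusters 0 and 6, and sums of at least 5 nuclei 426 and 8 genes in the 2 cluster comparisons. Without the rest in the fit none was called between clusters 0 and 6.

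The log2 differences that changed sign were these. In gene windows Dbx1 ranged from -0.11 (without E13.5) to 0.27 with 1 library left out and was -0.11 without cluster 9, Irx3 was 0.56 with each cluster as its own sum (-0.73 without cluster 11), and Nkx6-1 ranged from -0.033 to 0.016 (without E15.5) with 1 library left out and was 0.087 with cluster 3 left out, 1.40 with each cluster as its own sum, 0.11 when that setting left out cluster 11 and 0.011 without cluster 9. In promoters Dbx1 ranged from -0.43 (without E13.5) to 0.27 (without E12.5) and was -0.23 with DESeq2, -0.088 with clusters 2 and 4 in the rest and -0.21 without cluster 9, and Nkx6-1 ranged from -0.43 to 0.25 (without E15.5) and was 0.88 with each cluster as its own sum. In flanks Nkx2-2 was -0.0062 with 100 kb and Irx3 ranged from -0.037 (without E13.5) to 0.27. Between cluster 9 and clusters 0 and 6 the ranges with 1 library left out were -0.022 (without E13.5) to 0.26 for Nkx6-2, and, with the lowest value without E15.5, -0.12 to 0.21 for Nkx6-1, -0.15 to 0.88 for Gsx2 and -0.15 to 0.51 for Irx3, which was -1.09 in promoters. Between clusters 0 and 6 they were -0.024 (without E13.5) to 0.23 for Nkx6-2 and -0.42 to 0.049 (without E13.5) for Dbx1, and in promoters Nkx2-2 was -0.20 and Nkx6-2 -0.27. Of these, only Nkx6-1 with each cluster as its own sum was called (adjusted p = 0.0166), and of the main values only that of Irx3 was. Library is a block in every fit, and no paired analysis was possible beyond it because each stage has 1 library, so that the stages share fewer than 2 replicate numbers.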
